A study of Mus musculus with 82 samples.

Results

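The genes of the cytosolic ribosomal proteins were followed in RNA-seq libraries of mouse T cells. They were taken by name: every symbol that starts with Rpl or Rps and a digit, plus Rpsa, Rplp0, Rplp1 and Rplp2. Of the 102 symbols so matched, 10 kinase genes and 6 pseudogene names ending in -ps and a number were left out, which gave 86 of the 21823 genes found in all 3 count tables. By role these are 43 large subunit genes, 31 small subunit genes, 3 stalk genes, 8 paralogs of core genes and Rps19bp1, whose product binds a ribosomal protein and is not one itself. The 77 subunit and stalk genes are called the core below.

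The cells were OT-I (CD8) and OT-II (CD4) T cells, whose transgenic receptors recognise peptides of ovalbumin (OVA), on a background labelled C57BL/6. They were transferred into recipient mice, recovered from pooled spleen and lymph nodes by flow sorting, and sequenced 4 days after treatment with saline, with 5 µg of plain OVA, or with OVA carrying a synthetic galactose polymer (pGal-OVA, given at 5 µg by the design text and at a molar equivalent of antigen by the treatment protocol). In the prophylactic experiment the treatment followed the transfer by 1 day, each library pooled 3 mice, and libraries came in 2 batches. It held 5 libraries each of OT-I with saline, OVA and pGal-OVA, 5 of OT-II with saline, 4 with OVA and 5 with pGal-OVA. In the therapeutic experiment the recipients were immunised with OVA in complete Freund's adjuvant and treated about a month later, so the saline controls had met the antigen too, and each library came from 1 mouse. Its tables held 53 libraries, of which 42 carried the lineage genes of their label: 6 OT-I with saline, 8 with OVA and 8 with pGal-OVA, and 6, 6 and 8 OT-II. The labels used here give no age for the mice.

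The other 11 therapeutic libraries carried the other lineage's genes. The 6 labelled OT-I held 424 to 1373 counts per 1000000 counts of the library (CPM) of Cd4 and 0.617 to 2.72 CPM of Cd8a, and the 5 labelled OT-II held 1.70 to 4.12 CPM of Cd4 and 799 to 1271 CPM of Cd8a. In the matching therapeutic libraries Cd8a was 701 to 1413 CPM in OT-I and at most 13.7 CPM in OT-II, and Cd4 was at most 4.78 CPM in OT-I and 285 to 1359 CPM in OT-II. The mismatched libraries enter no comparison below. All 29 prophylactic libraries matched their label, but some held more of the other lineage's gene than the matching therapeutic ones. In prophylactic OT-I libraries Cd8a was 786 to 1173 CPM and Cd4 0.326 to 197 CPM. In prophylactic OT-II libraries Cd4 was 248 to 1125 CPM and Cd8a 0.331 to 118 CPM. Total counts were 21.2 to 68.2 M (M for 1000000) per prophylactic library and 22.6 to 62.5 M per therapeutic library, so the levels given below rest on many counts except where a gene is near 0.

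A ribosome joins a small subunit, which reads the messenger RNA, to a large subunit, which forms the peptide bond. Each holds its own set of proteins, and the stalk proteins Rplp0, Rplp1 and Rplp2 recruit the elongation factors. Most ribosomal protein messenger RNAs start with a cytosine and a run of pyrimidines, the terminal oligopyrimidine (TOP) motif, through which mTORC1 controls their translation. T cells enlarge their ribosome pool when they are activated by antigen. RNA-seq measures the messenger RNA and not its translation.

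The start windows below are shown because the TOP motif is the feature the family is known for. These windows are of some of the genes named in the later comparisons, and their numbers do not give the share of genes with the motif. Each is 30 bases of RefSeq's GRCm38.p6 sequence, 15 before the annotated start and 15 from it on the gene's strand, and capitals mark the run of C and T that begins at the start base with a C. The first group has such a run.
Rps6, chr4:86857353-86857382, minus strand: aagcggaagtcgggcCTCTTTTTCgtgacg
Rpl35, chr2:39005117-39005146, minus strand: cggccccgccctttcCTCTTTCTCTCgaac
Rpl14, chr9:120571502-120571531, plus strand: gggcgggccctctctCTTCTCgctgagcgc
Rps27, chr3:90213634-90213663, minus strand: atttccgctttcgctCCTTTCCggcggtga
Rps27rt, chr9:114982725-114982754, minus strand: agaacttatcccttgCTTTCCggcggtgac
The windows of 4 other members named in the comparisons have no such run at the annotated start.
Rps12, chr10:23787195-23787224, minus strand: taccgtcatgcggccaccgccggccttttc
Rps26, chr10:128626492-128626521, minus strand: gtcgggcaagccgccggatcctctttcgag
Rpl24, chr16:55966260-55966289, plus strand: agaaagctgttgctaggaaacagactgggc
Rpl4, chr9:64173372-64173401, plus strand: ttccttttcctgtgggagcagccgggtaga
A promoter entry was found for 66 of the 86 members and 57 of the core. A C at the start followed by at least 4 more C or T stood in 13 of those 57 core genes (22.8%) and in 449 of 16571 genes of the tables with an entry (2.71%). The letters CCGGAAGT, on either strand within 250 bases before to 50 after the start, stood in 11 of the 57 (19.3%) and in 983 of the 16571 (5.93%). These are matches of letters at annotated starts, and an annotated start can lie a few bases from the one used.

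The core genes differed widely in level although most of these proteins are present in equal number in a ribosome. Per kilobase of coding length, over the 71 libraries, the median core gene stood at 659 CPM per kilobase, and the span from the 10th to the 90th percentile ran from 289 to 1495, a ratio of 5.17. Rpl41, which encodes the shortest of these proteins, was highest at 3718 CPM per kilobase, with Rpl13 (2439) and Rps27 (2034) also near the top. Rpl5 (28.0), Rpl12 (60.6) and Rps12 (82.2) were the lowest core genes. These genes are named for their place in the order, after their values were seen. The medians by role were 705 CPM per kilobase for the small subunit, 595 for the large subunit and 1028 for the stalk, where Rplp0 stood at 1237, Rplp1 at 1028 and Rplp2 at 769. Spearman's rho between level per kilobase and coding length was 0.00242 over the 77 core genes. Without the division by length, rho between CPM and coding length was 0.515. The rank of genes with a very short coding length, such as Rpl41, therefore depends on that divisor. The order of the genes was nearly the same in both experiments, with a rho of 0.927 between the OT-I saline groups, which share the counting but no library.

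Among the paralogs, Rpl36al, a copy of Rpl36a, reached 528 CPM per kilobase, close to the core median. Rpl22l1, Rps27l and Rpl7l1 stood at 168, 157 and 154, and Rps27rt at 48.5. Rpl39l, which is known from the testis, stood at 1.98, and the median of Rpl3l, known from striated muscle, and of Rpl10l, known from the testis, was 0. Rps19bp1 stood at 39.4.

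**Figure D1:**
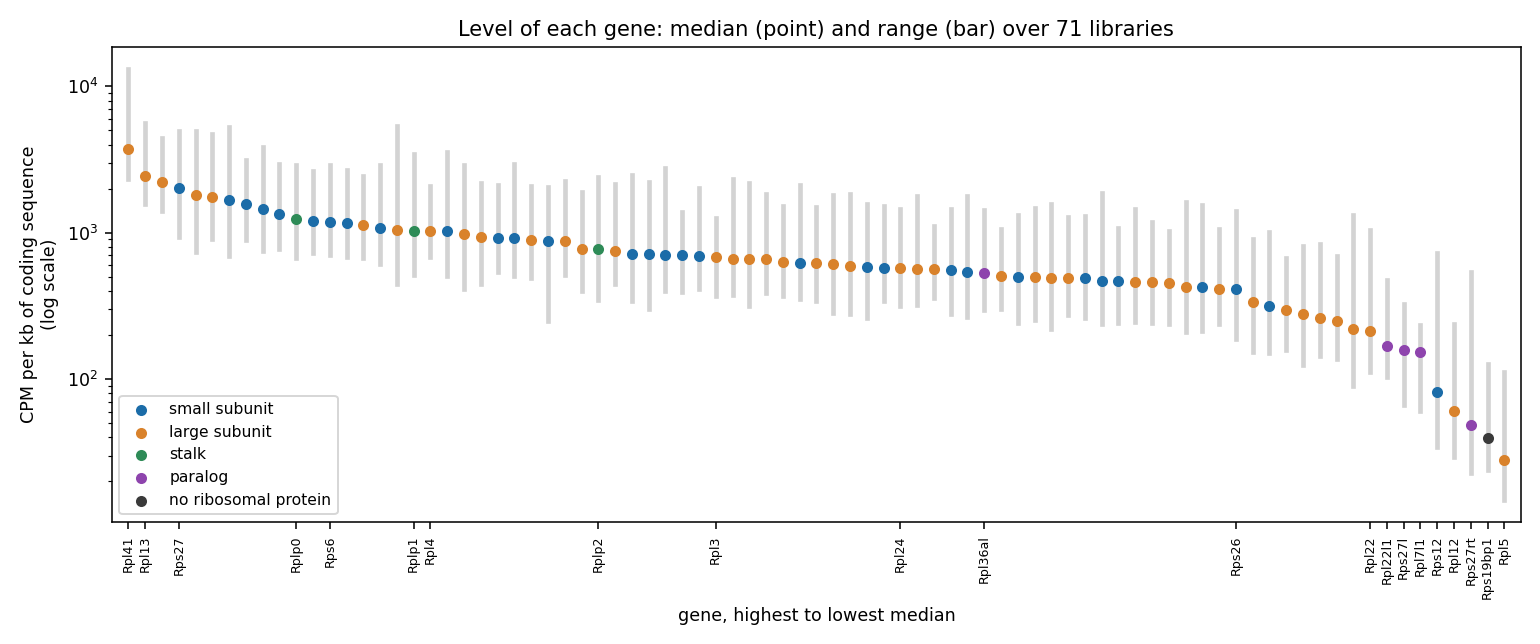
Level of 83 members, coloured by role, with the median (point) and range (bar) over 71 libraries in CPM per kilobase of coding length on a log axis; genes run from the highest to the lowest median and a few are labelled; the 3 paralogs with levels near 0 (Rpl3l, Rpl10l and Rpl39l) are left out. Core genes run from 28.0 (Rpl5) to 3718 (Rpl41), and the subunits overlap over most of that span.

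Several members share sequence with other genes. Rps12 shares 69.3% of its 31-base words with the copy Rps12-ps3 and other genes, and Rps12-ps3 was counted above Rps12 in 4 of the 5 prophylactic OT-II saline libraries. Rps27rt shares 92.4% of its words, mainly with Rps27, Rps18 shares 83.3%, Rpl10 75.8% and Rpl36a 69.5%. These shares count only other genes of the tables. Against any other annotated gene the core median was 44.5%, and 27 of the 77 core genes stood above 50%. Among these were Rps6 (84.9%), Rpl24 (82.2%) and Rpl13 (80.8%), while Rpl12 stood at 49.8% and Rpl5 at 44.7%. Counts of genes that share words depend on how the estimation split or assigned shared reads between copies. Over the 77 core genes, Spearman's rho between the level per kilobase and the share of words in other genes was −0.048.

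Member transcripts made up 1.97% to 7.98% of a library's counts, with a median of 3.13%. In the prophylactic OT-I groups the share ran from 2.63% to 5.01% (median 3.67%) with saline, from 3.02% to 3.89% (median 3.76%) with OVA and from 2.97% to 6.14% (median 4.10%) with pGal-OVA. In the prophylactic OT-II groups it ran from 2.34% to 3.49% (median 3.13%), from 2.36% to 3.11% (median 2.90%) and from 2.86% to 4.24% (median 3.61%). All 3 treatment groups overlapped within each cell type.

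In the therapeutic experiment the OT-I share ran from 2.31% to 5.90% (median 3.44%) with saline, from 2.19% to 7.98% (median 2.83%) with OVA and from 2.13% to 5.16% (median 3.51%) with pGal-OVA. The OT-II share ran from 1.97% to 5.81% (median 3.60%), from 2.10% to 4.68% (median 2.79%) and from 2.18% to 4.98% (median 3.23%). The spread within a group was therefore wider than any difference between group medians, and the mismatched libraries lay in the same span, from 2.14% to 5.57%. In bulk libraries a lower share can come from fewer cells rich in these transcripts or from less of them per cell, and these cannot be told apart.

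**Figure D2:**
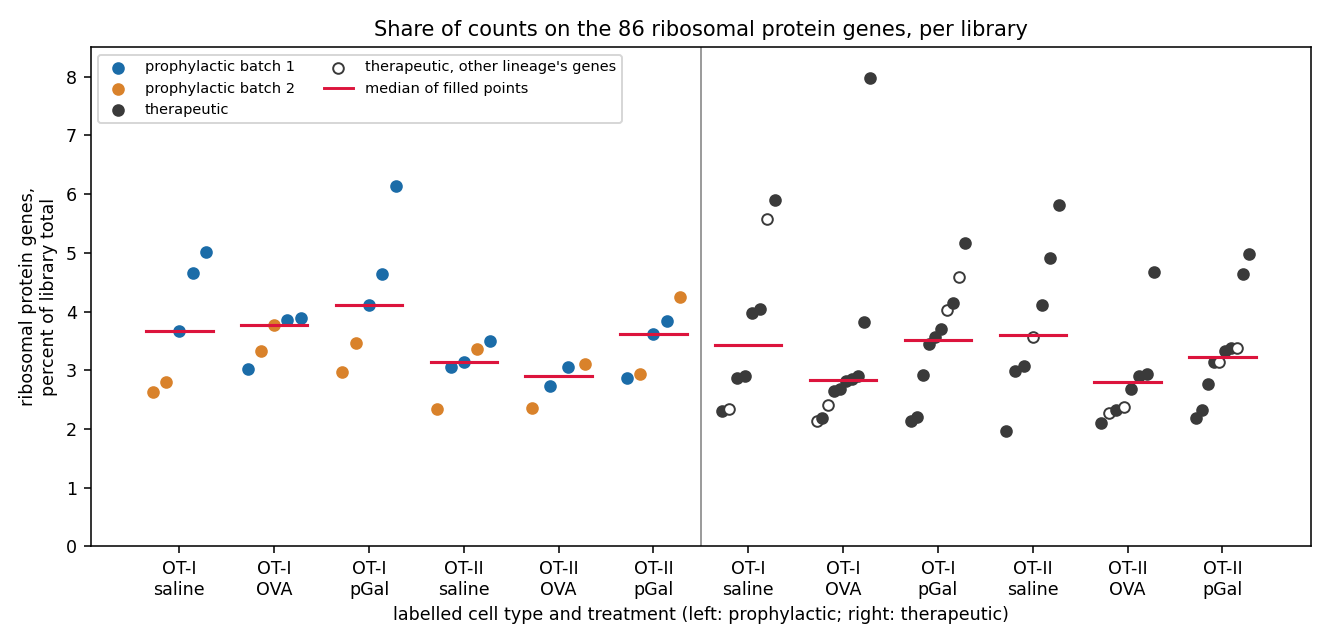
Share of each library's counts that falls on the 86 members, in percent, by experiment, cell type and treatment; each point is 1 library, and the line is the group median. The groups overlap throughout, and 1 therapeutic OT-I library with OVA stands at 7.98%.

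The core moved as a block from library to library. The median pairwise correlation between core genes within a group, on log2 CPM, was 0.67 to 0.98, and all of a group's genes share the library's total count. In 7 of the 71 libraries all 77 core genes lay above their group's median, and in 9 all 77 lay below it. At least 70 of the 77 lay on the same side in 35 libraries. The SD of the core's mean log2 CPM within groups was 0.34 in the prophylactic and 0.52 in the therapeutic experiment. In prophylactic groups this spread and these correlations include the difference between the batches, which the tests below take as a covariate.

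A set of 3 therapeutic libraries stood apart from their groups. The OT-I library 2 with OVA, at 7.98%, had 1.75% of its counts on mitochondrially encoded genes, against 0.609% to 1.04% in the other matching libraries of its group, and 1099 CPM summed over the erythroid and platelet list, against at most 462. OT-II library 1 with OVA had a share of 4.68%, against at most 2.93% in the others. OT-II library 9 with pGal-OVA had 7.31% of its counts on mitochondrially encoded genes and 325 CPM of Rps12, against 21.5 to 62.1 CPM in the others. The part of these measures in the results was not tested, and the medians of therapeutic comparisons are given with and without the 3 libraries. Because OT-I library 2 and OT-II library 1 stood apart by the share being compared, leaving them out lowers the OVA groups by itself.

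In prophylactic OT-II cells, pGal-OVA went with higher levels of several core genes than saline. In all, 10 of the 85 members tested passed an adjusted p under 0.05 (edgeR's quasi-likelihood test, Benjamini-Hochberg over all genes): 9 higher and 1 lower. Of all genes tested 11.7% passed, 6.37% higher and 5.34% lower, so the members' share was close to the background. The median log2 fold change of the members was 0.24, against 0.04 over all genes, and 74 of the 85 were positive.

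Rps12, a small subunit protein, had the largest rise. It stood at 27.1, 21.4 and 25.2 CPM in the batch 1 saline libraries and at 26.3 and 17.0 in those of batch 2. With pGal-OVA it stood at 38.5, 33.1 and 49.4 CPM in batch 1 and at 35.9 and 45.2 in batch 2. Every pGal-OVA library was above every saline library, and the log2 fold change was 0.83 (SE 0.17, edgeR adjusted p = 0.0077). Counted together with its copy Rps12-ps3 the difference was 0.50 and did not pass (edgeR adjusted p = 0.11).

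Rps26, which lies near the messenger RNA exit of the small subunit, showed the same order within batches. Its saline values were 157, 142 and 153 CPM in batch 1 and 103 and 135 in batch 2, and its pGal-OVA values were 271, 192 and 252 in batch 1 and 148 and 224 in batch 2. The groups overlapped across batches but not within either, and the log2 fold change was 0.70 (SE 0.15, edgeR adjusted p = 0.0090). Rpl24, a large subunit protein at the face between the subunits, stood at 163 to 242 CPM with saline and at 272 to 449 CPM with pGal-OVA, with no overlap. Its log2 fold change was 0.71 (SE 0.16, edgeR adjusted p = 0.011). With plain OVA it stood at 196, 233, 270.2 and 185 CPM, below every pGal-OVA library.

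The other members that rose were all of the large subunit. Rpl39, a very short protein of the exit tunnel, rose by 0.63 on the log2 scale (SE 0.16, edgeR adjusted p = 0.024), from 71.6 to 129 CPM with saline to 111 to 189.9 CPM with pGal-OVA. Rpl34 rose by 0.60, Rpl29 by 0.57, Rpl22 by 0.56, Rpl32 by 0.47 and Rpl27 by 0.40, with edgeR adjusted p values of 0.046, 0.022, 0.0497, 0.029 and 0.045. Rpl10l was the member that fell. It was at 0 in all 3 pGal-OVA libraries of batch 1 and at most 3.95 CPM in any library of the comparison, so no fold is given. None of the 3 stalk genes passed, with log2 fold changes of 0.07 and above, and neither did Rps6, Rpsa, Rps4x, Rpl3 or Rpl10.

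Most of these calls rest on few libraries. Leaving out 1 library at a time left 3 to 10 members called, and 7 of the 10 choices of library left 3 or 4: pGal-OVA 1 and 3 of batch 1 and 2 of batch 2, and saline 2 and 3 of batch 1 and 1 and 2 of batch 2. In batch 1 alone 4 members passed (background 12%) with a median of 0.12, and in batch 2 alone none passed (background 0%) with a median of 0.46. B cell transcripts moved with this comparison: all 14 genes of the B cell list were higher with pGal-OVA (median log2 fold change 2.99, none called), and their sum ran from 309 to 3414 CPM with saline and from 215 to 18073 CPM with pGal-OVA. With the libraries that held at least 100 CPM of the B cell gene Cd79a left out, 5 members passed (background 14.7%), namely Rps12, Rps26, Rpl24, Rpl29 and Rpl10l, and the members' median was 0.08.

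Against plain OVA, pGal-OVA in OT-II cells gave a median log2 fold change of 0.38, against −0.01 over all genes, with 79 of 85 members positive. Of the B cell list 13 of 14 genes were higher with pGal-OVA (median 0.58, none called), its sum with OVA ran from 409 to 31933 CPM, and with the Cd79a-rich libraries left out the members' median was 0.23. No member passed in edgeR (background 1.87%), and DESeq2 called 18 (background 6.47%) and limma voom 1 (background 2.5%). By edgeR 43 of the 85 members had an unadjusted p under 0.05, against 2102 of the 14128 genes tested. The members move together from library to library, so these are not 43 separate results. The smallest edgeR adjusted p values were those of Rps26 (0.64, SE 0.16, adjusted p = 0.062), Rpl39 (0.70, SE 0.18, adjusted p = 0.063) and Rps12 (0.70, SE 0.19, adjusted p = 0.080). All 31 small subunit genes and all 3 stalk genes were positive. Plain OVA against saline called none (background 0.163%, 0 members with an unadjusted p under 0.05, 0 by DESeq2), and the median was −0.13 with 76 of 85 negative. These comparisons share their groups, so the 3 sets of values are not independent.

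In prophylactic OT-I cells no member passed in any treatment comparison by edgeR. Against saline, pGal-OVA gave a median of 0.27 (78 of 85 positive, background 3.35%), and DESeq2 called 2 (background 8.35%). An unadjusted p under 0.05 was found for 16 of the 85 members and for 2617 of the 13802 genes tested, a similar share. Rpl29 was at 291, 309.6 and 229 CPM in the batch 1 saline libraries and at 220.3 and 218 in batch 2, and with pGal-OVA at 426, 319 and 292 in batch 1 and at 324 and 417 in batch 2. The groups overlapped in batch 1 and not in batch 2, and the log2 fold change was 0.55 (SE 0.16, edgeR adjusted p = 0.075). Rps27l differed by 0.42 (SE 0.15, edgeR adjusted p = 0.13).

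With plain OVA in OT-I cells the members' median had opposite signs in the 2 batches, and no member was called in either batch alone. Over both batches the median against saline was 0.04 (57 of 85 positive, background 5.39%), and 2 members had an unadjusted p under 0.05, against 2749 of 13802 genes. The median was −0.27 in batch 1 with 6 members positive and 0.49 in batch 2 with 80 positive. Rpl4 was at 1581, 1621 and 1400.0 CPM with saline and at 1238, 1288 and 1231 with OVA in batch 1, and at 1320.5 and 1293 with saline and 1576 and 1615 with OVA in batch 2. The groups did not overlap within either batch and stood in opposite order. Against OVA, pGal-OVA gave a median of 0.22 over both batches, with 81 of 85 positive, 0.47 in batch 1 and −0.12 in batch 2, where 16 were positive. No member passed there, DESeq2 called 0 and the background was 0%. Of the members 2 had an unadjusted p under 0.05, against 420 of all 13802 genes tested.

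Rps27l, a paralog of Rps27 that p53 is known to induce, was the member closest to a call with plain OVA in OT-I cells. It stood at 60.2, 60.4 and 44.8 CPM with saline and at 67.99, 78.6 and 60.4 with OVA in batch 1, and at 28.0 and 20.8 with saline and 31.0 and 44.8 with OVA in batch 2. The difference was 0.49 (SE 0.15, edgeR adjusted p = 0.067), and DESeq2 put it past the threshold at 0.48 (adjusted p = 0.027), its 1 call among the members (background 9.82%).

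**Figure D3:**
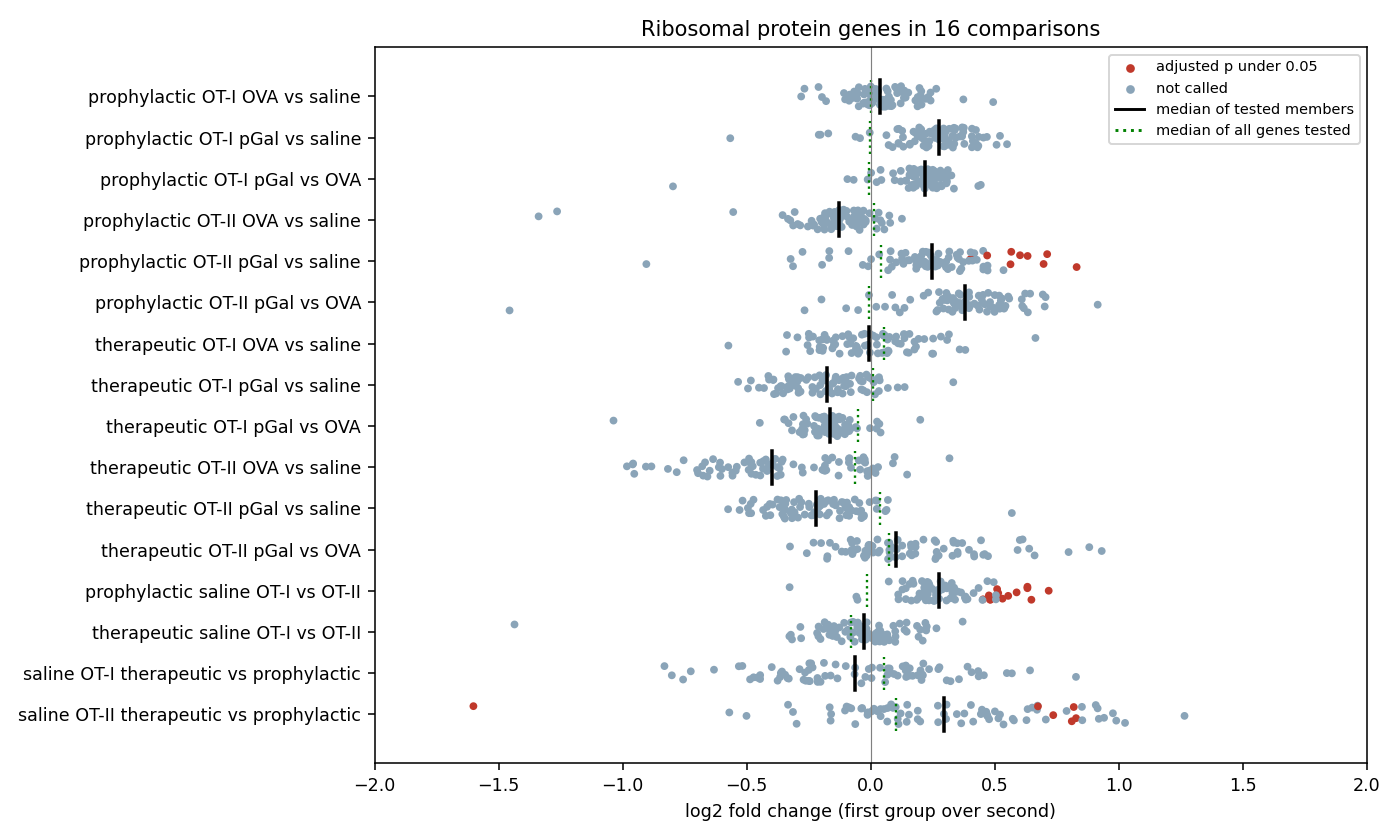
Log2 fold changes of the members in 16 comparisons, 1 point per member, with the axis held at 2 in either direction and 5 points beyond it; red points passed the test, the black line is the members' median and the green dotted line the median of all genes. The members' medians lie above that of all genes for pGal-OVA in both prophylactic cell types and below it in most therapeutic comparisons.

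No member passed the test for a different response in OT-I and OT-II cells. The interaction called 0 of 85 members for OVA against saline (background 0.0337%), 0 for pGal-OVA against saline (background 1.17%) and 0 for pGal-OVA against OVA (background 0.505%). None had an unadjusted p under 0.05 in any of the 3, and DESeq2 called 0 in each. Rps27l came nearest for OVA against saline, with a difference of 0.43 (SE 0.23, edgeR adjusted p = 0.72).

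In the therapeutic experiment no member passed in any of the 6 treatment comparisons by edgeR. In OT-II cells the members' median with plain OVA against saline was −0.40, against −0.07 over all genes (background 1.54%, 1 member called by DESeq2 against 5.01% of all genes). Of 84 members, which move together from library to library, 77 were negative. The unadjusted p was under 0.05 for 12 of the 84 members and for 2214 of the 14244 genes tested. Rps19, a small subunit protein and the partner of Rps19bp1, stood at 1445, 872, 837, 1247, 658 and 1608 CPM in the 6 saline libraries, where the median was 1059.6. With OVA the 6 libraries ran from 498 to 1073 CPM with a median of 589, and 5 of them were at or below 674. The groups overlapped, and the log2 fold change was −0.75 (SE 0.24, edgeR adjusted p = 0.12). Rpl21 (−0.98, SE 0.42) and Rpl31 (−0.82, SE 0.35) had larger differences with larger errors, with edgeR adjusted p values of 0.26 for both. Without the 3 libraries that stand apart the median was −0.57, and Rps19 was the 1 member called (−0.96, edgeR adjusted p = 0.033, background 2.07%). Library 1 with OVA was left out for its high member share, while saline libraries 7 and 1, at 5.81% and 4.91%, were kept. That choice lowers the OVA group by itself, so this median and call are not separate evidence of a fall.

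With pGal-OVA the OT-II median against saline was −0.22 (background 0.00702%, 0 by DESeq2), and −0.37 without the 3 libraries. Here 4 of the 84 members had an unadjusted p under 0.05, against 1280 of the 14244 genes tested. Rps2 (−0.53, SE 0.19), Rps19 (−0.58, SE 0.22) and Rpl35 (−0.47, SE 0.22) had the smallest p values, with edgeR adjusted p values of 0.38, 0.42 and 0.53. Between pGal-OVA and OVA the median was 0.10 (background 0%, 0 by DESeq2), and 0.19 without the 3 libraries. In that comparison 1 member had an unadjusted p under 0.05, against 1013 of 14244 genes. The member with the smallest p there was Rpl5 (0.93, SE 0.40, edgeR adjusted p = 0.67).

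In therapeutic OT-I cells the median of pGal-OVA against OVA changed sign with 1 library. Against saline the median was −0.01 with OVA (background 0.686%) and −0.18 with pGal-OVA (background 0%), and pGal-OVA against OVA gave −0.16 (background 0%). In none of these did a member have an unadjusted p under 0.05, and DESeq2 called 0 in each. Without OT-I library 2 with OVA the OVA median against saline became −0.35, with 80 of 84 members negative, the median of pGal-OVA against saline −0.13, and the median of pGal-OVA against OVA 0.24 with 81 positive. No member was called in any of the 3 without it. Rpl14 was the member with the smallest p against saline, at −0.57 with OVA (SE 0.32, edgeR adjusted p = 0.47) and −0.54 with pGal-OVA (SE 0.32, edgeR adjusted p = 0.84). Its OVA values ran from 252 to 964 CPM, and the highest came from library 2.

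Between the cell types, 13 members were higher and 1 was lower in prophylactic OT-I than OT-II cells with saline, and the members' share called in either direction was not above the background. By edgeR 14 of 85 members passed, 13 higher and 1 lower (background 18.1%, 10% higher and 8.12% lower), the median was 0.27 against −0.02 over all genes, and 81 of 85 were positive. The 13 were 7 large subunit genes, 4 small subunit genes, Rplp0 and Rpl22l1. Rpl10l was the 1 lower, at under 4 CPM throughout.

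Rpl4, which reaches into the exit tunnel, stood at 1581, 1621 and 1400.0 CPM in the OT-I libraries of batch 1 and at 1320.5 and 1293 in batch 2, against 1008, 922 and 923 and then 961 and 1114 in OT-II. The cell types did not overlap, and the log2 difference was 0.63 (SE 0.11, edgeR adjusted p = 0.000113). Rpl3, near the peptidyl transferase centre, stood at 1388, 1481, 1289, 961 and 970.1 CPM in OT-I and at 954, 821, 851, 703 and 906 in OT-II, again with no overlap. Its difference was 0.59 (SE 0.13, edgeR adjusted p = 0.0018). Rps12 differed by 0.72 (SE 0.22, edgeR adjusted p = 0.024), and by 0.77 when counted with its copies (adjusted p = 0.017). Rpl22l1 differed by 0.65 (SE 0.23, edgeR adjusted p = 0.045), Rpl32 by 0.63 (SE 0.17, edgeR adjusted p = 0.0091), and Rplp0 and Rps6 by 0.48 each (edgeR adjusted p = 0.018 and 0.022).

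The 2 batches did not give the same picture. In batch 1 alone 34 members passed, all higher in OT-I (background 18%), with a median of 0.51 and 83 positive. In batch 2 alone none passed (background 1.99%), the median was −0.09 and 25 were positive, and only 25 members had the same sign in both. Rpl4 (0.77 in batch 1, 0.40 in batch 2) and Rpl3 (0.74 and 0.33) kept their direction, and Rps12 (1.02 and 0.18) and Rpl22l1 (0.92 and 0.15) kept it at a smaller size. Leaving out OT-I saline 1 or 2 of batch 1, OT-II saline 2 or 3 of batch 1, or OT-II saline 1 of batch 2 left 4, 5, 5, 9 and 6 members called. Rpl22l1 lost its call without any of 7 of the 10 libraries, and Rps12 without OT-I saline 1 or 2 of batch 1, OT-II saline 2 of batch 1 or OT-II saline 2 of batch 2. Over all treatments, the share of counts on the members was 3.02% to 6.14% in OT-I and 2.73% to 3.84% in OT-II in batch 1, and 2.63% to 3.76% and 2.34% to 4.24% in batch 2.

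In the therapeutic experiment no member passed between the cell types with saline (background 9%, 0 with an unadjusted p under 0.05, 0 by DESeq2). The median was −0.03, with 35 of 84 positive. Rpl4 ran from 1082 to 2206 CPM in OT-I and from 917 to 2533 CPM in OT-II. The spread in each group was much wider than in the prophylactic experiment, and a difference between the experiments in this contrast was not tested.

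**Figure D4:**
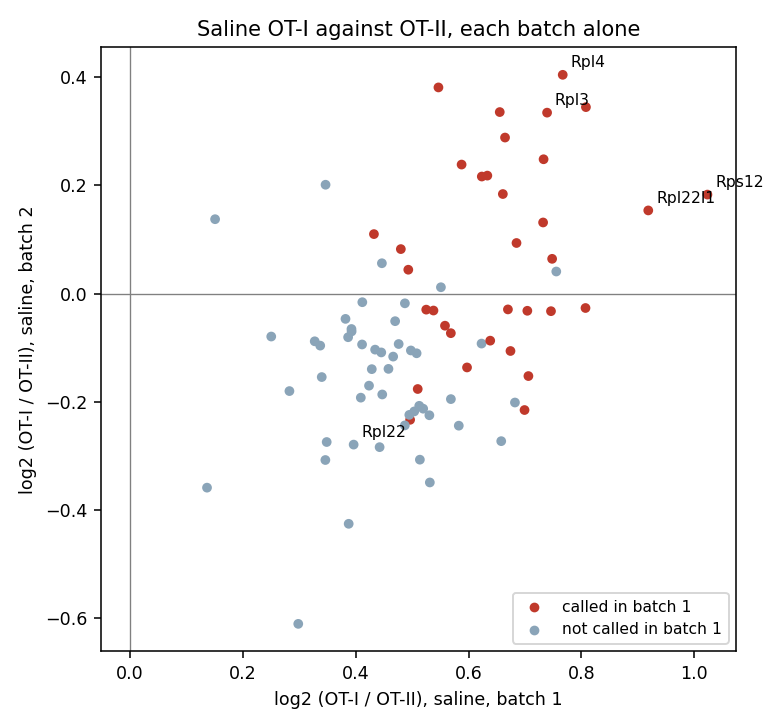
Log2 difference between OT-I and OT-II saline libraries for 83 members, batch 1 on the horizontal axis and batch 2 on the vertical. Most points lie right of 0 in batch 1 (median 0.51) and around or below 0 in batch 2 (median −0.09).

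The saline groups of the 2 experiments differ in immunisation, age of the transfer, pooling and handling, which cannot be told apart. The prophylactic groups hold both batches, and batch was not a covariate in this comparison. In OT-II cells 6 of 85 members passed by edgeR, 5 higher and 1 lower in the therapeutic group (background 15.7%, 9.47% higher and 6.25% lower), and the median was 0.29 against 0.10 over all genes. Rpl13 ran from 1157 to 1415 CPM (median 1188) in the prophylactic and from 1325 to 3024 CPM (median 2257) in the therapeutic libraries, a difference of 0.83 (SE 0.21, edgeR adjusted p = 0.0061). Rpl6 (0.82), Rpl35 (0.81), Rpl4 (0.74) and Rps6 (0.67) also passed, with edgeR adjusted p values of 0.046, 0.030, 0.017 and 0.049. Without each of the 5 prophylactic saline libraries in turn 3 members passed. With the Cd79a-rich libraries left out 3 passed as well (background 9.52%), but these were all lower: Rps27rt, Rps28 and Rps29, the last 2 named after their values were seen.

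In OT-I cells 2 of 85 passed, both lower in the therapeutic group (background 20.1%, 10.4% higher and 9.63% lower), with a median of −0.07. They were Rpl10l, near 0 in both, and Rps27rt, whose prophylactic levels were high in batch 1 and not in batch 2, as given below. Neither core subunit gave a called gene there, and Rpl4 differed by 0.08 (SE 0.22, edgeR adjusted p = 0.84).

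Rps27rt, a near copy of Rps27, differed between the batches. It stood at 36.2 to 136 CPM in 16 of the 17 batch 1 libraries and at 8.24 CPM in the other, OT-II library 2 with OVA, against 8.496 to 21.2 CPM in batch 2. The therapeutic saline libraries ran from 6.29 to 28.6 CPM in OT-I and from 8.17 to 19.2 CPM in OT-II. As a share of Rps27rt and Rps27 together it made up 1.38% to 11.3% in batch 1, 1.98% to 3.30% in batch 2 and 1.48% to 3.61% in the therapeutic libraries. Since 92.4% of its words are shared, a change in how reads were split between the copies cannot be told apart from a change in expression.

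The balance within paralog pairs was compared as the paralog's share of the pair. This share can still move with the family: therapeutic OT-I library 1 with saline, where members took 5.90% of the counts, had 26.2% of the pair on Rpl22l1, and library 8, where they took 2.31%, had 52.9%. The 4 pairs were chosen for this after values were seen, and 56 exact permutation tests within batches were run. Rpl22l1, which can replace Rpl22 and is known to act against it in T cell development, made up 45.6% to 53.1% of the pair in the 15 prophylactic OT-I libraries and 37.8% to 44.7% in the 14 OT-II libraries, with no overlap. Between the saline groups the difference was 8.17 percentage points (exact permutation p = 0.0167, the smallest possible, 0.187 after Benjamini-Hochberg adjustment). In the therapeutic libraries the ranges overlapped, from 26.2% to 53.7% in OT-I and from 18.0% to 48.3% in OT-II, and the saline groups gave an exact permutation p of 0.777.

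Rps27l as a share of Rps27l and Rps27 was 5.51% to 6.78% with saline and 6.86% to 11.0% with OVA in prophylactic OT-I cells. In OT-II cells it was 4.88% to 5.84% with saline and 5.87% to 7.31% with OVA. Neither pair of groups overlapped, and each gave an exact permutation p of 0.0167, the smallest possible, and 0.187 after adjustment. Rpl36al made up 7.34 percentage points more of its pair with Rpl36a in therapeutic OT-II cells with OVA than with saline (69.9% to 73.6% against 55.3% to 67.4%, exact permutation p = 0.00216, the smallest possible, 0.121 after adjustment). Rpl7l1 made up 5.36 percentage points less of its pair with Rpl7 in prophylactic OT-II cells with pGal-OVA than with saline (9.13% to 16.4% against 14.7% to 19.6%, exact permutation p = 0.0167, the smallest possible, 0.187 after adjustment). None of the 56 tests passed 0.05 after adjustment. For most of them this could not have come out otherwise from 1 strong result. The smallest possible exact permutation p was 0.0167 in the prophylactic tests and 0.00216 in the therapeutic tests of 6 against 6 libraries. A single test at either value cannot pass over 56 tests, so no conclusion is drawn from its failure.

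**Figure D5:**
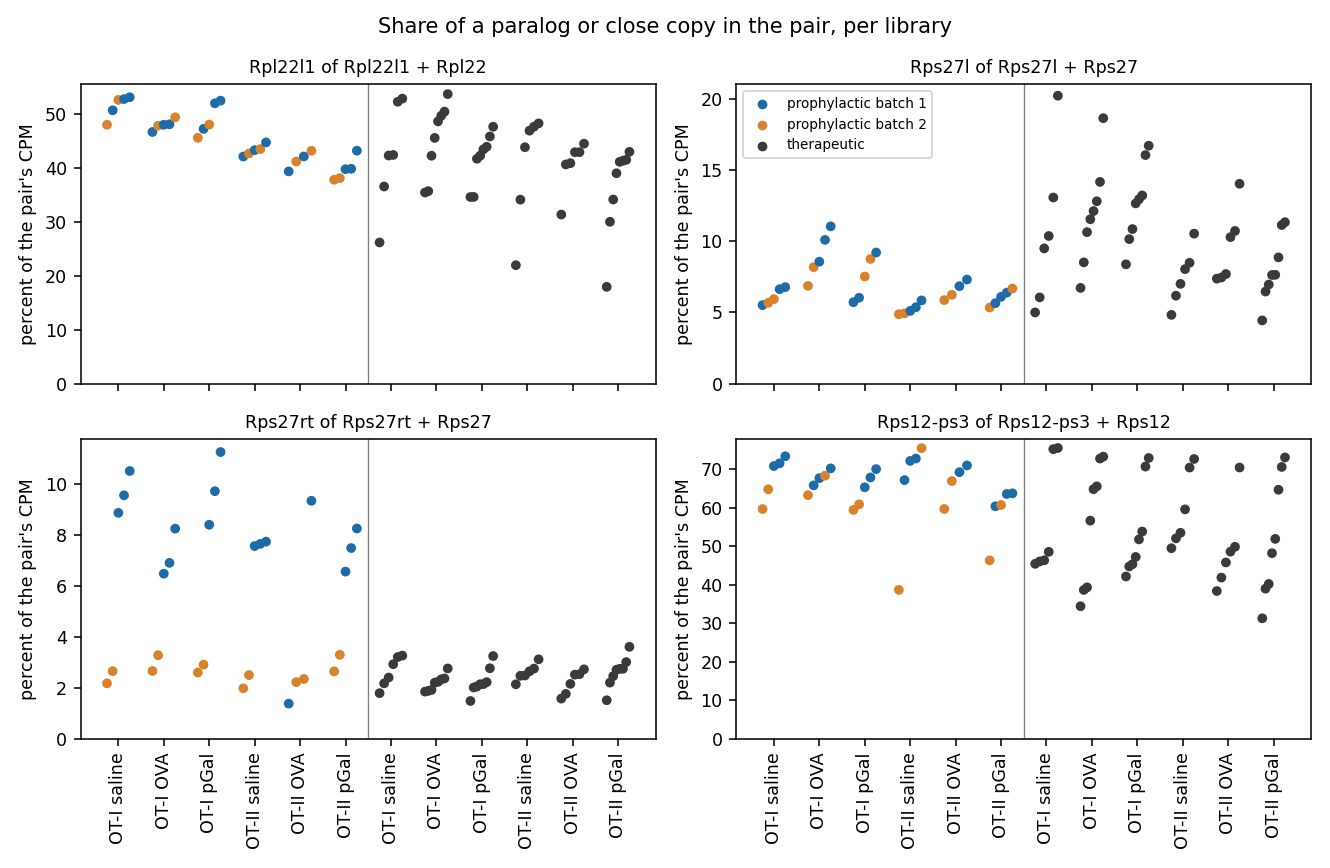
Share of 4 paralogs in the counts of their pair, in percent, by experiment, cell type and treatment; each point is 1 library. Rpl22l1 separates the prophylactic cell types (45.6% to 53.1% against 37.8% to 44.7%) and not the therapeutic ones.

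Where genes that build the ribosome passed under treatment, nearly all were lower. Of 36 ribosome biogenesis genes, 11 fell and none rose with OVA in prophylactic OT-I cells (median −0.29, with 176 of all 13802 genes called lower). Among them Gnl3, a nucleolar GTPase, fell by 0.60 (SE 0.11, edgeR adjusted p = 0.0038) and Nop14 fell by 0.46 (SE 0.09, edgeR adjusted p = 0.0056). With pGal-OVA in OT-II cells 12 fell and none rose (5.34% of all genes called lower), among them Nop56, of the box C/D particles, which fell by 0.82 (SE 0.09, edgeR adjusted p = 9.54e-05), while 9 core genes rose. Fau, whose product carries the small subunit protein eS30, rose there by 0.60 (SE 0.17, edgeR adjusted p = 0.041). Of 24 translation factors 4 rose and 1 fell in that comparison (6.37% of all genes called higher and 5.34% lower). Between the cell types in prophylactic saline libraries, where 10% of all genes were called higher in OT-I, members of both lists passed as higher: 28 of 36 biogenesis genes, led by Tsr1 (0.91, SE 0.10, edgeR adjusted p = 1.44e-07) and Dkc1 (0.89, SE 0.10, edgeR adjusted p = 1.95e-07), and 9 of 24 translation factors. The elongation factors Eef2 (0.51, edgeR adjusted p = 0.0052) and Eef1a1 (0.52, edgeR adjusted p = 0.0075) were among them, and Myc, a known driver of ribosome synthesis, was higher by 1.29 (SE 0.16, edgeR adjusted p = 2.24e-06). These list counts were not split by batch, and over all genes 2708 passed in batch 1 alone and 291 in batch 2 alone.

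Proliferation genes were higher in some comparisons in which no ribosomal protein gene passed. With OVA in prophylactic OT-I cells 16 of 25 were higher (median 1.61, with 5.39% of all genes called) and Myc fell by 0.47 (SE 0.12, edgeR adjusted p = 0.028). In the therapeutic OT-II comparison of OVA with saline 3 of the 36 biogenesis genes fell (median −0.32) and no translation factor passed. There 1.54% of all genes were called, 132 of 14244 lower. In the therapeutic saline comparison of OT-I with OT-II no biogenesis gene or translation factor passed. Of 25 proliferation genes 9 were higher in OT-I (9% of all genes called, 696 of 15747 higher).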

How the data were processed

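Gene counts of 82 libraries came from 3 tables (SMART-Seq v4 and Nextera libraries, per the labels' protocols). The deposited values are estimated counts, stored as whole numbers; the submitters' processing notes name bcl2fastq, kallisto 0.46.1 and GRCm38, and no source used here says how transcripts were summed to genes. CPM scales each gene's count to the library's total. Differences were tested with edgeR 4.0.16 (R 4.3.3; filterByExpr, TMM, robust quasi-likelihood, Benjamini-Hochberg over all genes, threshold 0.05), with batch as a covariate in the prophylactic experiment; DESeq2 1.42.0 and limma 3.58.1 served as alternatives. The fits were tested on simulated data. Of the members, 85 passed the count filter in the prophylactic and 84 in the therapeutic tests. Therapeutic libraries labelled OT-I with Cd8a not above Cd4, or labelled OT-II with Cd8a above Cd4, were left out. P-values measure the spread between libraries, which are mice or pools of mice as far as the labels say. Members, lists and tests were chosen with earlier results of these data known. Where members passed, the 5 highest and 5 lowest are named; where none did, the 3 with the smallest p; a panel of paralogs, partners and stalk genes is named throughout, and of other lists up to 3 called genes plus Fau, Rack1, Eef1a1, Eef2 and Myc. Some genes that these rules would name are not reported here. Same-numbered OT-I and OT-II saline libraries deviated together in 5 of 5 prophylactic pairs (r 0.242 to 0.548) and in 5 of 5 therapeutic pairs (r 0.107 to 0.549), as did the therapeutic pGal-OVA libraries of both cell types, which are not compared here (8 of 8 pairs, r 0.157 to 0.558); between treatments of 1 cell type no comparison had every pair over 0.1. Promoter windows are RefSeq's (GRCm38.p6), and shared 31-base words were counted over the annotated transcripts.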

Additional observations from a re-analysis of the deposited data

Results flagged for a closer look

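For 22 measures in groups of 4 to 8 libraries, 264 groups in all, 37 had a highest or lowest library that stood away from the rest by Dixon's test at the 95% level. Chance alone flags about 1 group in 20, and the measures move together, so the flags are not independent.

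Therapeutic OT-I library 2 with OVA was the highest of 8 in 18 measures. Its summed share was 7.98%, against 2.19% to 3.82% in the others. It held 313 CPM of Rpl22, 174 of Rpl22l1, 1105 of Rps27, 103 of Rps27l, 31.4 of Rps27rt and 456 of Rpl36al. It also held 1269 CPM of Rpl7, 263 of Rpl39, 1033 of Rps4x, 1456 of Rpl3, 2661 of Rpsa and 2173 of Rps6. The stalk genes Rplp0, Rplp1 and Rplp2 stood at 2766, 1174 and 836 CPM, Rps12 at 113 CPM and Rpl4 at 2632 CPM.

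Therapeutic OT-II library 1 with OVA was the highest of 6 in its summed share (4.68%), Rpl22 (176 CPM), Rps4x (650.2 CPM), Rpsa (1649 CPM), Rps6 (1569 CPM) and Rpl4 (1987 CPM). Therapeutic OT-II library 9 with pGal-OVA was the highest of 8 in Rpl22 (404 CPM), Rpl36a (236 CPM), Rplp2 (784 CPM) and Rps12 (325 CPM).

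Single measures stood out elsewhere. Rps19bp1 was 54.4 CPM in therapeutic OT-II library 10 with pGal-OVA and 53.0 CPM in OT-II library 7 with saline, and Rpl7l1 was 161 CPM in OT-I library 1 with pGal-OVA. In the prophylactic OT-II saline group, library 1 of batch 2 was the lowest in Rpl22 (49.1 CPM) and Rpl36a (49.6 CPM), and library 2 of batch 2 was the highest in Rpl7 (753 CPM) and Rpsa (1131 CPM). With OVA, library 3 of batch 1 was the highest of 4 in Rps27rt (69.6 CPM), in a group that mixes the batches: this is within the usual span of batch 1, and library 2 of batch 1, at 8.24 CPM, was not. Also with OVA, library 2 of batch 2 was the lowest in Rpl3 (697 CPM).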

How the results depend on the processing

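The summed share of the members moved by less than the spread between replicates in all 90 alternatives. The number of members called moved more, and the counts here stand without the share over all genes. That share moves with the method too. For pGal-OVA against OVA in prophylactic OT-II cells it was 1.87% by edgeR and 6.47% by DESeq2. A higher count alone is therefore no result about the members. DESeq2 called 1 member for OVA and 2 for pGal-OVA against saline in prophylactic OT-I cells, 18 for pGal-OVA against saline and 18 against OVA in OT-II cells (limma voom 1 for the latter), 1 for OVA against saline in therapeutic OT-II cells, and 1 and 10 for the therapeutic against the prophylactic saline libraries of OT-I and OT-II. For pGal-OVA against saline in prophylactic OT-II cells, 6 were called with no filter on low counts, 5 with the replicate number as a block, 5 with the Cd79a-rich libraries left out, 5 with near-identical copies summed, 4 in batch 1 alone and 0 in batch 2 alone. The treatment groups share only a number. Blocking the saline comparison of OT-I with OT-II, whose numbers pair, left 13 and 0 called in the prophylactic and therapeutic experiment, and the block changed no other count by over 1.5 times. That comparison gave 34 in batch 1 alone and 0 in batch 2 alone. For the saline libraries of the 2 experiments, limma voom and the summed copies gave 0 in OT-I, and leaving out the Cd79a-rich libraries gave 3 in OT-II. Without the 3 therapeutic libraries that stand apart, 1 member was called for OVA against saline in OT-II cells. This exclusion and the summed copies were chosen after seeing the data. Leaving out 1 library at a time gave 0 to 1 and 0 to 1 for OVA and pGal-OVA against saline in prophylactic OT-I cells (1 without OVA 1 of batch 2 and without pGal-OVA 3 of batch 1), 3 to 10 for pGal-OVA against saline in OT-II cells, 4 to 14 for the prophylactic saline cell types, and 3 to 3 for the saline OT-II libraries between experiments. The genes followed through every alternative were a selected few per comparison and not all members, and 4 of them changed sign. Rps3 was −0.00143 in batch 2 alone for pGal-OVA against OVA in prophylactic OT-I cells. In that contrast 17 of 85 members had the same sign in both batches. For the same contrast in therapeutic OT-I cells Rpl34 was 0.11 and Rplp0 0.066 without the 3 libraries. Rpl39l was 0.32 there with the replicate block. Over all 85 members, signs were far less stable in some prophylactic contrasts than among the followed genes. The batches shared a sign for as few as 7 members (OVA against saline in OT-I cells) and as many as 79 (pGal-OVA against saline in OT-I cells). The cause of these changes was not tested. Depth limits only Rpl3l, Rpl10l and Rpl39l, whose levels were near 0.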
